A study of Mus musculus with 12 samples.

Results

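Acyl-CoA synthetases join coenzyme A (CoA) to a fatty acid, the step that commits the acid to oxidation, storage or membrane synthesis. They are grouped by the chain length they prefer. ACSL enzymes act on long chains, ACSM enzymes on medium chains inside mitochondria, and ACSS enzymes on acetate and other short chains. Brown adipocytes burn much of their acyl-CoA for heat, whereas white adipocytes store most of it as triglyceride. The 9 genes described here were taken by name from the 20660 named genes on the array, and are the long-chain Acsl1, Acsl3, Acsl4, Acsl5 and Acsl6, the medium-chain Acsm3 and Acsm5, and the short-chain Acss1 and Acss2. The members were chosen with earlier results of these data known. Acsm3 was included because of its large difference between genotypes in subcutaneous white adipose tissue (scWAT), so its values there are given as a description with no test. The 9 genes had 13 probes, and 11 of these, for 8 of the genes, passed the filter on dim signal. The exception was Acsl6.

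RNA came from scWAT and brown adipose tissue (BAT) of male C57Bl6/J mice aged 12 weeks. Mice lacking LR11 (Lr11-/-), the receptor encoded by Sorl1, were set against wild-type (WT) littermates, and both genotypes were fed a high-fat diet (HFD) with 60% of calories from fat. The knockout was in the germline and so not limited to adipocytes. The labels give 4 weeks of HFD as well as HFD since weaning, so its length is unclear. Each of the 4 groups of genotype and tissue had 3 one-colour Agilent arrays. Replicates carry no number in the labels and were numbered here in the order of deposit. The labels do not say whether each array is a separate mouse or whether scWAT and BAT came from the same mice, so p values measure the spread between these samples, which may be partly technical. Replicate 1 of each group belonged to a first array series and replicates 2 and 3 to a second. In the first series the scWAT and BAT arrays were on different slides, so tissue and slide cannot be told apart there. All arrays of the second series were on the same slide.

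Levels are log2 intensities relative to the 75th percentile of each array, which is 0, and a difference of 1 is a doubling. Each gene is read from its brightest tested probe, and probes are not compared with each other. The number of arrays limits the precision. Sorl1 was lower on every Lr11-/- array than on every WT array, at -3.57 to -2.87 against 0.91 to 1.15 in scWAT and -3.93 to -2.45 against 0.11 to 1.21 in BAT. Some scWAT arrays stood apart from the others of their group. The summed level of 11 skeletal muscle markers, where 1 is the 75th percentile, was 5278 in WT scWAT replicate 3 and 4698 in Lr11-/- scWAT replicate 1, against 4.23 to 37.3 on the other scWAT arrays. In BAT it was 917 to 1627 in WT replicates 1 and 3 and Lr11-/- replicate 1, and 31.8 to 35.9 on the other arrays. In WT scWAT replicate 2 the summed level of 6 general adipocyte markers was 422, against 912 to 2255 on the other scWAT arrays, and that of 4 macrophage markers was 131, against 24.8 to 54.5. Bulk RNA cannot tell fewer cells of a type from less RNA per cell.

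Acsm3, a mitochondrial enzyme that activates medium-chain fatty acids, was the member with the widest range. In WT scWAT its levels were -5.05, -6.71 and 0.04 in replicates 1 to 3, and replicate 2 was not well above background. In Lr11-/- scWAT they were 3.40, 4.34 and 4.81. The WT BAT levels were 3.24, 4.12 and 3.45, and the Lr11-/- BAT levels 4.53, 4.23 and 4.95. WT scWAT was therefore the single group with low values, and within it replicate 3 lay between the other WT scWAT arrays and the remaining groups.

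In scWAT the WT mean of Acsm3 was -3.91 ± 3.52 and the Lr11-/- mean 4.18 ± 0.72 (SD, n = 3 each), a log2 difference of 8.09. Because 1 WT array was dim, the bound is at least 186-fold higher in Lr11-/-, taken after a dim array was lifted to the faintest signal that counted as well above its background. A second probe gave a difference of 8.14 and at least 197-fold. The difference was 8.44 within the first array series and 7.91 within the second. Over the other ways of processing it lay between 6.04, with another estimate of the background, and 10.46, without the scWAT arrays rich in muscle transcripts. Leaving out WT scWAT replicate 2 gave 6.69, and leaving out replicate 3 gave 10.06.

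**Figure D1:**
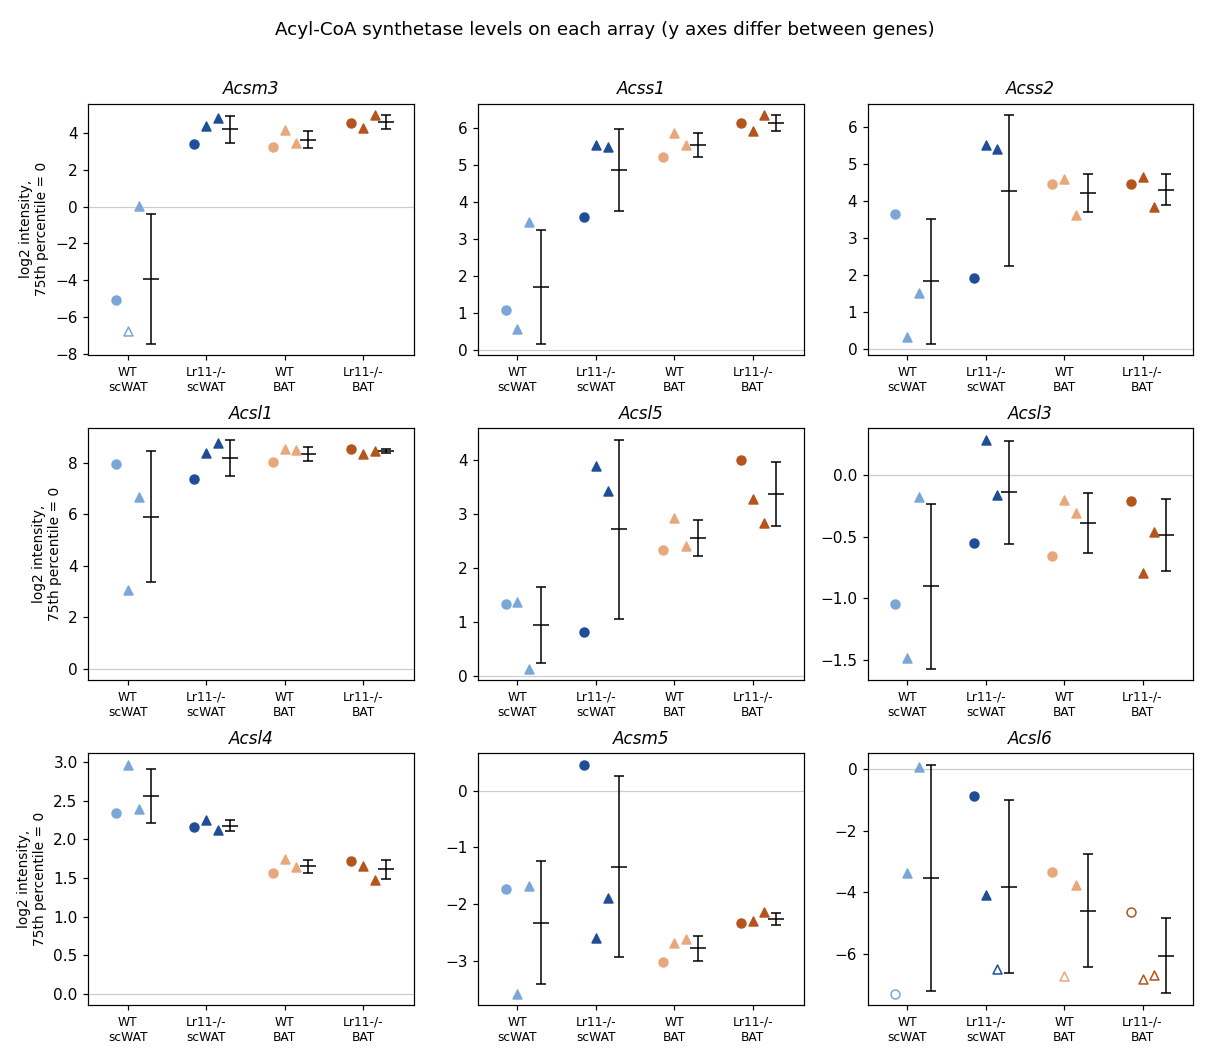
Levels of the 9 acyl-CoA synthetases on each array as log2 intensity relative to the array's 75th percentile, by genotype and tissue. Circles are the first array series, triangles the second, open symbols were not well above background, and the dash with bars is the mean ± SD (n = 3); in scWAT the genotypes do not overlap for Acsm3 and Acss1, with Lr11-/- higher, and for Acsl4, with Lr11-/- lower, and they overlap for the 6 others.

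In Lr11-/- scWAT the Acsm3 level overlapped with both BAT groups. BAT minus scWAT was 7.51 in WT, at least 124-fold, and 0.39 in Lr11-/-. In BAT, which played no part in the choice of Acsm3, the 3 Lr11-/- arrays were above the 3 WT arrays, with means of 4.57 ± 0.36 and 3.60 ± 0.46 (SD, n = 3 each). The difference of 0.97 (SE 1.30, 95% interval -1.90 to 3.84) did not pass the test (adjusted p = 1 from limma over all 32131 tested probes). The spread in this fit is shared by the 4 groups and includes that of WT scWAT.

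Acsm3 followed the brown adipocyte markers from array to array in scWAT. The summed level of 7 such markers (Ucp1, Cidea, Elovl3, Ppargc1a, Cox7a1, Cox8b and Dio2) was 23.1, 1.92 and 262 in WT scWAT replicates 1 to 3, with 4 of 7 well above background in replicate 2 and all 7 in the others. It was 398, 3358 and 3640 in Lr11-/- scWAT and 2625 to 3555 in BAT. The arrays thus had the same order for Acsm3 and for these markers in scWAT. Acsm3 was chosen for its genotype difference here. All these markers but Dio2 stand with it in a list of higher genes that the study drew from these arrays. That WT lay below Lr11-/- for both was thus partly set by the choice, and the order is a description with no test. In Lr11-/- scWAT replicate 1 the marker sum was 398, near the 262 of WT scWAT replicate 3, whereas Acsm3 was 3.40 and 0.04 on these arrays. Both arrays were rich in muscle transcripts, and the part of muscle tissue in these sums was not tested. Ucp1 was 4.39 and 2.92 on them. The lowest Cox8b, Cox7a1 and Cidea levels in Lr11-/- scWAT were 7.37, 7.02 and 6.31. The highest in WT scWAT were 7.33, 6.16 and 4.34. The sum of the 6 general adipocyte markers, which do not separate white from brown adipocytes, was 1910 in WT scWAT replicate 1, where Acsm3 was at -5.05. How far the cell makeup of the samples bears on Acsm3 was not tested.

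**Figure D2:**
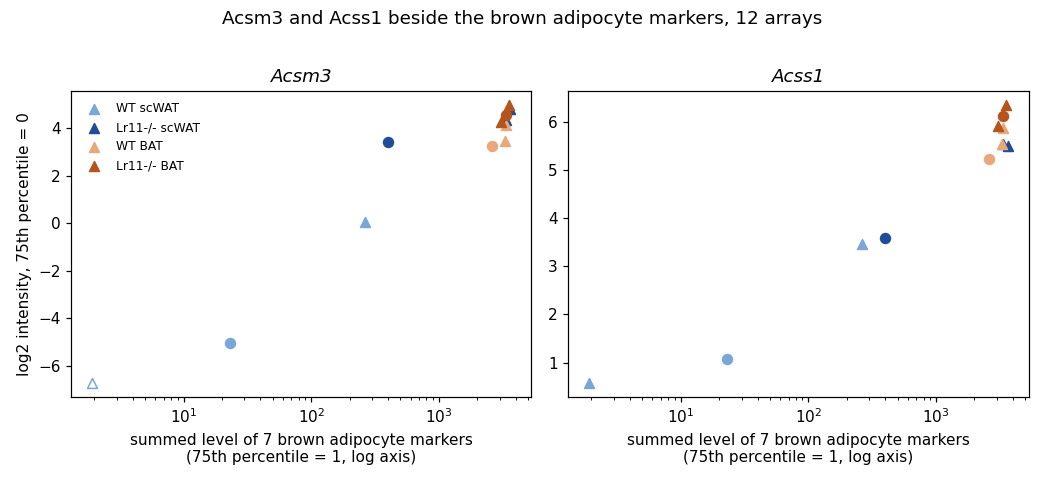
Level of Acsm3 (left) and Acss1 (right) on each of the 12 arrays against the summed level of 7 brown adipocyte markers, where 1 is the array's 75th percentile (log axis). Circles are the first array series, triangles the second, and the open triangle was not well above background. The 3 WT scWAT arrays and Lr11-/- scWAT replicate 1 lie apart from the 8 others on the marker axis. WT scWAT replicate 3 and Lr11-/- scWAT replicate 1 were rich in muscle transcripts, and the part of muscle tissue in their marker sums was not tested.

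Acss1 is the mitochondrial acetyl-CoA synthetase, which lets mitochondria burn acetate. It was the only one of the 7 tested members other than Acsm3 that passed the test in scWAT. The WT levels were 1.08, 0.58 and 3.46 and the Lr11-/- levels 3.59, 5.53 and 5.49, so the genotypes did not overlap, although WT replicate 3 and Lr11-/- replicate 1 were close to each other. Acss1 rose by 3.17 (SE 0.70), an 8.97-fold change (adjusted p = 0.0413 from limma). Its SDs were 1.54 in WT and 1.11 in Lr11-/- scWAT, against 0.32 and 0.22 in BAT. The SE uses the spread shared by all 4 groups and so understates that of the scWAT arrays. The share of all tested probes that passed was 5.26%, and 3.39% passed as higher in Lr11-/-. That share rests on single arrays. It was 0.00934% without Lr11-/- scWAT replicate 3, 0.0871% without replicate 2 of that group, 0.691% without WT scWAT replicate 2, 0.445% to 0.545% without any 1 BAT array and 0% when only scWAT arrays were fitted, and it was 19.8% without Lr11-/- scWAT replicate 1 and 13.7% and 14.4% without WT scWAT replicates 1 and 3. Acss1 was higher in both array series, by 2.51 and 3.49. The call was lost in 11 of 26 other ways of processing, in which the difference stayed between 2.60 and 4.68 and the adjusted p ran from 8.44e-05 to 0.315. The adjusted p was 0.108 when WT scWAT replicate 2 was left out, 0.159 and 0.178 when Lr11-/- scWAT replicates 2 and 3 were, 0.0657 to 0.0695 for any 1 BAT array, 0.0775 with no filter on dim probes, and 0.315 when only scWAT arrays were fitted.

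In BAT the WT levels of Acss1 were 5.22, 5.87 and 5.53 and the Lr11-/- levels 6.12, 5.90 and 6.34. The groups did not overlap, but the difference of 0.58 (SE 0.70) had an adjusted p of 1 in limma. The genotype difference in scWAT exceeded that in BAT by 2.58 (SE 0.99), with an unadjusted p of 0.0254 and an adjusted p of 0.412 in limma, so a difference between the tissues was not shown. In this contrast 0% of all tested probes passed, and 11% had an unadjusted p under 0.05. Without both scWAT arrays rich in muscle transcripts, a setting chosen after seeing the data, the excess for Acss1 was 4.10. Its adjusted p was 0.00134 in limma, in a range of 0.00134 to 0.781 over the settings. In that setting 9.43% of all tested probes passed this contrast.

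Acss2, its counterpart in the cytosol and nucleus, supplies acetyl-CoA for lipid synthesis and histone acetylation. In scWAT the WT levels were 3.66, 0.33 and 1.52 and the Lr11-/- levels 1.93, 5.53 and 5.41. The groups overlapped, since Lr11-/- replicate 1 was lower than WT replicate 1. The difference of 2.45 (SE 0.98) did not pass the test (adjusted p = 0.139 from limma). It was -1.73 within the first array series and 4.54 within the second, and a second probe gave -2.17 and 4.60. BAT differed by 0.08 (SE 0.98), with levels of 3.64 to 4.60 in WT and 3.84 to 4.65 in Lr11-/-.

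Among the long-chain enzymes, Acsl1 is the main form of adipocytes and channels fatty acids to oxidation in brown fat. In scWAT the WT levels were 7.97, 3.06 and 6.69 and the Lr11-/- levels 7.39, 8.40 and 8.76. WT replicate 2 was low, and WT replicate 1 lay inside the Lr11-/- range. The difference was 2.28 (SE 0.95, adjusted p = 0.154 from limma), made of -0.57 in the first array series and 3.70 in the second. Without WT scWAT replicate 2, the array with the low adipocyte markers, it was the smallest of all settings, 0.86. On the 6 BAT arrays Acsl1 was between 8.04 and 8.54.

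Acsl5, found on mitochondria and the endoplasmic reticulum, had WT scWAT levels of 1.33, 1.37 and 0.14 and Lr11-/- levels of 0.83, 3.89 and 3.43. In each genotype the lowest array was the one rich in muscle transcripts. The difference of 1.77 (SE 0.70) did not pass (adjusted p = 0.135 from limma). It was -0.50 in the first array series and 2.90 in the second. In BAT the WT levels of Acsl5 were 2.33, 2.93 and 2.40 and overlapped with the Lr11-/- levels of 4.00, 3.28 and 2.83, with a difference of 0.82 (SE 0.70, adjusted p = 1 from limma).

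Acsl3, which loads lipid droplets as they form, had WT scWAT levels of -1.05, -1.48 and -0.18 and Lr11-/- levels of -0.55, 0.28 and -0.16. The difference of 0.76 (SE 0.34) had an adjusted p of 0.182 in limma and the same sign in both array series. Acsl4, which prefers arachidonic acid and other polyunsaturated chains, was the one tested member with a lower mean in Lr11-/- scWAT. The WT levels were 2.34, 2.97 and 2.39 and the Lr11-/- levels 2.17, 2.25 and 2.12, with no overlap. The difference of -0.39 (SE 0.21) did not pass (adjusted p = 0.25 from limma). The 4 macrophage markers, all well above background throughout, also summed highest in WT replicate 2, at 29.9 to 131 over the WT and 24.8 to 40.4 over the Lr11-/- scWAT arrays, and their part was not tested.

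Acsm5, the other medium-chain member, had WT scWAT levels of -1.73, -3.58 and -1.68 and Lr11-/- levels of 0.46, -2.59 and -1.89. Its highest level was in Lr11-/- replicate 1, the array in which 5 epithelial markers summed to 41.7 against 0.40 to 8.39 on all others. That array was also rich in muscle transcripts (a marker sum of 4698), and the part of either tissue was not tested. The difference of 0.98 (SE 0.71) had an adjusted p of 0.391 in limma. In BAT the WT levels of -3.02, -2.69 and -2.61 lay below the Lr11-/- levels of -2.34, -2.30 and -2.15, and the difference of 0.51 (SE 0.71) had an adjusted p of 1 in limma.

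Acsl6, an enzyme best known from brain, was too dim to be tested. It was well above background on 2 of 3 arrays in WT scWAT, Lr11-/- scWAT and WT BAT and on 0 of 3 in Lr11-/- BAT. The WT scWAT levels were -7.28, -3.39 and 0.06 and the Lr11-/- scWAT levels -0.88, -4.08 and -6.48. The WT BAT levels were -3.35, -6.71 and -3.76 and the Lr11-/- BAT levels -4.65, -6.81 and -6.69. In each of the 4 groups its highest level was on an array rich in muscle markers, and in BAT the 3 arrays with high muscle markers held the 3 highest Acsl6 levels, although that of Lr11-/- BAT replicate 1 was itself not well above background. Whether muscle tissue accounts for this was not tested.

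Since the members were chosen with earlier results of these data known, the counts and medians below are not independent evidence. Over the 7 tested members other than Acsm3, the scWAT difference was positive for 6, and its median was 1.77, against 0.04 over all tested probes. At an unadjusted p under 0.05 there were 4 (27.6% of all probes), and 1 passed after adjustment. WT and Lr11-/- arrays were fully separate for 2 of the 7, Acss1 and Acsl4, near the 20.4% of all tested probes for which this was so. Acsl1, Acsl5 and Acss2 were lower in Lr11-/- than in WT within the first array series and higher within the second, and Acss1, Acsl3, Acsm5 and Acsm3 were higher in both. The first series has 1 scWAT array of each genotype, and its Lr11-/- array is the one rich in muscle transcripts. When this array and WT scWAT replicate 3 were both left out, Acss1, Acsl5, Acss2 and Acsl3 passed the test as higher in Lr11-/- (4 of 7). Their differences were 4.68, 2.31, 3.47 and 1.32, and 26.2% of all probes passed. This setting was chosen after seeing the data. The arrays left out also had the highest brown marker sum in WT scWAT (262) and the lowest in Lr11-/- scWAT (398), and the part of muscle tissue in these sums was not tested. For Acss1 they were the closest pair across genotypes, so leaving them out widens that gap by the choice itself.

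**Figure D3:**
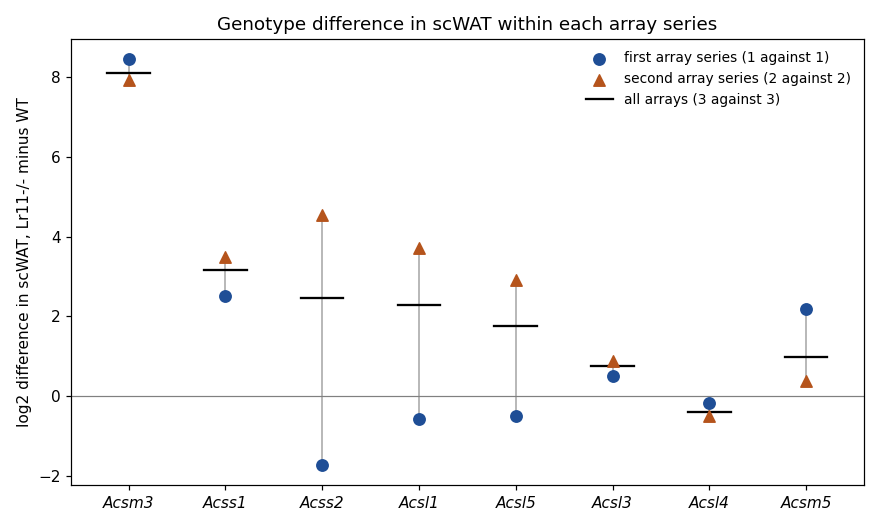
Log2 difference between Lr11-/- and WT scWAT for 8 members within the first array series (circles, 1 array of each genotype), within the second (triangles, 2 of each) and over all arrays (bars, 3 of each). Acsl1, Acsl5 and Acss2 lie below 0 in the first series and above 0 in the second, Acsm3, Acss1, Acsl3 and Acsm5 lie above 0 in both, and Acsl4 lies below 0 in both.

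In BAT 0 of the 8 tested members passed in limma, and 0 had an unadjusted p under 0.05. Of all tested probes 0.0187% passed and 2.12% had an unadjusted p under 0.05. These p values use the spread shared by the 4 groups and so do not measure the spread of BAT alone. For Acsm5 the SDs were 0.22 and 0.10 in WT and Lr11-/- BAT, against 1.08 and 1.60 in scWAT. With only the BAT arrays fitted, 0 of the 8 passed, beside 0.0871% of all probes. Acsm3, Acss1 and Acsm5 were the 3 members whose genotypes did not overlap, each with Lr11-/- higher, beside 12.1% of all probes with no overlap in either direction. The median difference of the 8 was 0.31, against 0.04 over all probes. Acsl1, Acsl3, Acsl4 and Acss2 differed by between -0.10 and 0.10, with intervals that reached from -2.09 to 2.25 for Acss2 and from -0.49 to 0.42 for Acsl4.

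Between the depots of WT mice, Acss1 and Acsl4 passed the test in opposite directions. Acss1 was higher in BAT by 3.84 (SE 0.70), or 14.3-fold (adjusted p = 0.00599 from limma), and passed in all 26 other settings. Acsl4 was lower in BAT than in scWAT by a difference of -0.92 (SE 0.21, adjusted p = 0.012 from limma), with levels of 1.57 to 1.74 against 2.34 to 2.97, and lost its call in 1 of the 26. They are 2 of the 7 members tested, where 24.8% of all probes passed. Acsl1 and Acsl5 were higher on every BAT array than on every WT scWAT array, by 2.45 (adjusted p = 0.0825) and 1.61 (adjusted p = 0.112), and did not pass in limma. In all, 4 of the 7 did not overlap between the depots, as did 40.2% of all probes. The median depot difference was 1.61, against 0.07 over all probes.

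In Lr11-/- mice 0 of the 7 members passed between the depots in limma, where 0.0405% of all probes passed. Only Acsl4 had an unadjusted p under 0.05, as did 9% of all probes. Acss1 was still higher on every BAT array than on every scWAT array, by 1.25 (SE 0.70, adjusted p = 0.636), and Acsl4 lower on every one, by -0.57 (SE 0.21, adjusted p = 0.443), both from limma. These 2 of 7 stand beside 23.2% of all probes. The median depot difference of the members was 0.02. The WT and Lr11-/- depot comparisons share no arrays with each other, but each shares its scWAT arrays with the genotype comparison above. From the lowest to the highest mean, the order for Acsm3 was WT scWAT, WT BAT, Lr11-/- scWAT and Lr11-/- BAT, and of these neighbours only WT scWAT and WT BAT did not overlap. For Acss1 the order ran from WT scWAT through the knockout scWAT and the WT BAT to the knockout BAT, with an overlap between the middle pair alone.

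Among the genes whose levels followed Acsm3 most closely over the 12 arrays, of 14721 named genes, were Gfm2, Fn3k, Ddo, Cox7a1, Icmt, Cenpv, Car11, 1190007I07Rik and Smim26, with Pearson correlations of 0.986 down to 0.975. Cox7a1, a subunit of the respiratory chain complex that uses oxygen, is also one of the brown markers above, and Gfm2 acts in mitochondrial translation. Ucp1 ranked 22nd at 0.966. Among the members Acss1 was closest, with a correlation of 0.959 and rank 44, followed by Acsl1 at 0.782, and Acsl4 was at -0.777. With the mean of each group subtracted, the correlation was 0.904 for Acss1, 0.516 for Acsl1 and -0.55 for Acsl4, and Acsl3, at 0.840, came before Acsl1. The points share the low WT scWAT arrays for which Acsm3 was chosen, so these values are a description and carry no test.

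The promoters shown are those of Acsm3 and Acss1, whose levels ran together over the arrays, and of Acsl4, whose levels ran the other way. Each is the stretch of 250 bases before the start of the gene in the RefSeq table of assembly GRCm38.p6, on the coding strand, where all 9 members had an entry. The start used by these samples was not measured. Capitals mark matches to any of 7 motifs searched on both strands, which were the CCAAT box (CCAAT), the GC box (GGGCGG), an E-box (CACGTG), the cAMP response element (TGACGTCA), an SREBP site (TCACNCCAC), the nuclear receptor half-site (AGGTCA) and the ERR half-site (TNAAGGTCA), which contains AGGTCA.
Acsm3, chr7:119760673-119760922, plus strand: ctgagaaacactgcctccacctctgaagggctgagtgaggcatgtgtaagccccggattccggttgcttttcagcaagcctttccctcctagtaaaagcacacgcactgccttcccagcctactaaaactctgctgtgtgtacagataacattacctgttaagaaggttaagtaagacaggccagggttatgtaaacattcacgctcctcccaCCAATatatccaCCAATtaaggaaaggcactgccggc
Acss1, chr2:150668241-150668490, minus strand: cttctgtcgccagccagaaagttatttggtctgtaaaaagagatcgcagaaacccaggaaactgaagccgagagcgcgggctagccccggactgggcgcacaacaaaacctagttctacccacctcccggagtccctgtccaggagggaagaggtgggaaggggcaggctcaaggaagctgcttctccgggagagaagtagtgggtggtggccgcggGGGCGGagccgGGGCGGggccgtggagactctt
Acsl4, chrX:142390536-142390785, minus strand: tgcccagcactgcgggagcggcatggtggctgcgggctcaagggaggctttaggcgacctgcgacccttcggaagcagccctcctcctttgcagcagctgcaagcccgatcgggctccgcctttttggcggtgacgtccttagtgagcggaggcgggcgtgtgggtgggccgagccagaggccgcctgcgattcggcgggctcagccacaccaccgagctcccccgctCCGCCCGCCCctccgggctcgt

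The Acsm3 window held CCAAT at positions -37 and -25 from the start and no GC box, and its GC content was 49.2%. The Acss1 and Acsl4 windows held 2 GC boxes each and no CCAAT, with GC contents of 61.6% and 70.8%. CCAAT was present in 33.8%, GGGCGG in 32.7%, CACGTG in 6.02%, TGACGTCA in 1.55% and TNAAGGTCA in 1.14% of the 32851 promoters of the table. The half-site AGGTCA, held by 14% of them, was in none of the 3 windows printed and, among the 9 members, was matched at Acsl6 alone. TCACNCCAC, held by 1.05%, was matched at 1 of the 2 Acsl1 starts.

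The neighbours of Acsm3 on chromosome 7 were read to see how far the difference extended. Of the 4 protein-coding genes on each side, 6 had a tested probe. Eri2, an exonuclease gene that overlaps the 3′ end of Acsm3 in the gene table, was at -2.44 to -1.78 in WT scWAT and -1.35 to -0.98 in Lr11-/- scWAT and rose by 1.01 (SE 0.24, adjusted p = 0.0441 from limma). Rexo5, a second exonuclease gene, rose by 1.26 (SE 0.32, adjusted p = 0.0491 from limma). Dcun1d3 and Lyrm1 followed with 1.13 and 0.85 and did not pass, with adjusted p of 0.0773 and 0.144 in limma. On the other side Acsm1, a medium-chain synthetase like Acsm3, differed by 0.36 and Thumpd1 by 0.01. The 2 of 6 that passed stand beside 5.26% of all tested probes, 3.39% as higher. At least 1 of the 6 passed in 12 of the 26 other settings. The number was 0 without WT scWAT replicate 2, where 0.691% of all probes passed. It was also 0 without Lr11-/- scWAT replicate 2 or 3 (0.0871% and 0.00934%) and without any 1 BAT array (0.445% to 0.545%). With array series or slide as a block it was 0 as well (4.03% and 2.84% of all probes). The same held with no scaling (2.61%), with no filter on dim probes (0.271%) and when only scWAT arrays were fitted (0%). In BAT the differences of these 6 genes lay between -0.33 and 0.61.

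**Figure D4:**
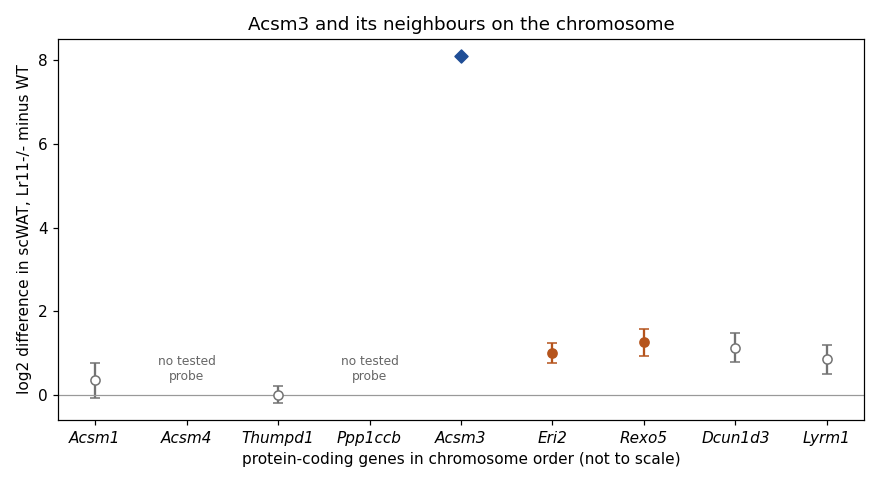
Log2 difference between Lr11-/- and WT scWAT for Acsm3 (diamond, no test) and the 4 protein-coding genes on each side in chromosome order, with bars of ± SE; filled circles passed the test. Acsm3 lies at 8.09, the 4 genes on its right between 0.85 and 1.26, and Acsm1 and Thumpd1 on its left at 0.36 and 0.01.

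The wider acyl-CoA pathway was read from 5 lists, which were chosen with earlier results of these data known. Their scWAT counts stand beside the 5.26% of all probes that passed and the 3.39% that passed as higher. Over the 61 tested genes of the 5 lists 11 passed as higher and 1 as lower, and these calls rest on single arrays as the share of all probes does. The number higher was 0 without Lr11-/- scWAT replicate 2 or 3 and when only scWAT arrays were fitted, 1 without WT scWAT replicate 2, 1 to 3 without any 1 BAT array, and 31 without Lr11-/- scWAT replicate 1. With array series or slide as a block it was 8 and 7 (4.03% and 2.84% of all probes). Of 13 tested other acyl-CoA synthetases, 2 rose in Lr11-/- scWAT and 0 fell. Slc27a2, which activates very long chains, rose by 6.97 (at least 106-fold, adjusted p = 0.0206 from limma), and Acsf3, which makes malonyl-CoA in mitochondria, rose by 3.06 (adjusted p = 0.0475). Of 14 thioesterases, which undo the synthetase step, 4 rose and 0 fell. They were Acot2 by 3.75, Acot4 by 2.67, Acot5 by 2.49 and Acot13 by 1.73, with adjusted p of 0.0327 to 0.045 in limma. Acot2, Acot4 and Acot5 belong to a cluster of closely similar genes, and whether their probes bind each other's transcripts was not tested.

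Of 12 genes of CoA synthesis and breakdown, 2 rose and 1 fell in scWAT. Pank1, the first kinase of CoA synthesis, rose by at least 23.9-fold, with 2 of 3 WT scWAT arrays well above background, and Nudt8, which cleaves CoA, by 1.63 on the log2 scale, with adjusted p of 0.0398 and 0.0393 in limma. Ppcdc, the decarboxylase of CoA synthesis, fell by 2.20 (at least 2.56-fold lower, adjusted p = 0.0133 from limma). It was well above background on 2 of 3 WT scWAT arrays, 3 of 3 WT BAT arrays and 0 of 3 in both Lr11-/- groups, so it entered the test through WT BAT alone. Its BAT level was -4.36 to -3.12 in WT and -6.71 to -6.22 in Lr11-/-, at least 2.97-fold lower, which is given without a test. Ppcdc lies on chromosome 9, as does Sorl1. Of 12 carriers and carnitine shuttle genes, Slc25a20 and Cpt2, which take acylcarnitines into mitochondria and return them to acyl-CoA, rose by 2.97 and 2.77 (adjusted p of 0.045 and 0.0465 in limma), and 0 fell. With array series or slide as a block, 0 of these 12 passed as higher. Of 10 users and sources of acetyl-CoA, Acaca, which makes malonyl-CoA for lipid synthesis, rose by 3.75 (adjusted p = 0.0263 from limma), and 0 fell.

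The median scWAT differences of the 5 lists were 0.37 for the other synthetases, 1.26 for the thioesterases, 1.14 for CoA synthesis and breakdown, 1.15 for carriers and 2.10 for acetyl-CoA, against 0.04 over all probes. Markers of cell types moved in the same comparison, with a median difference of 1.44 for the 6 general adipocyte markers (0 passed the test, 3 with an unadjusted p under 0.05) and 6.17 for the 7 brown adipocyte markers (4 passed as higher), and their part in the list values was not tested. Between the depots of WT mice, 27 of the 61 tested genes of the lists were higher in BAT and 3 lower, beside 15.7% and 9.13% of all probes. Slc27a2 was at least 218-fold and Pank1 at least 102-fold higher in BAT, Acot11 and Cpt1b were higher by 6.39 and 5.69, and Cpt1c, Cpt1a and Slc27a3 lower, by differences of -1.92, -1.62 and -1.16. Acsm3, Acsl1, Slc27a2, Pank1, Acaca, Acot2 and Cpt1b also stand in a list the study drew from these arrays. So do Fn3k, Ddo and all the brown adipocyte markers but Dio2. The direction of these genes is therefore not independent evidence.

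**Figure D5:**
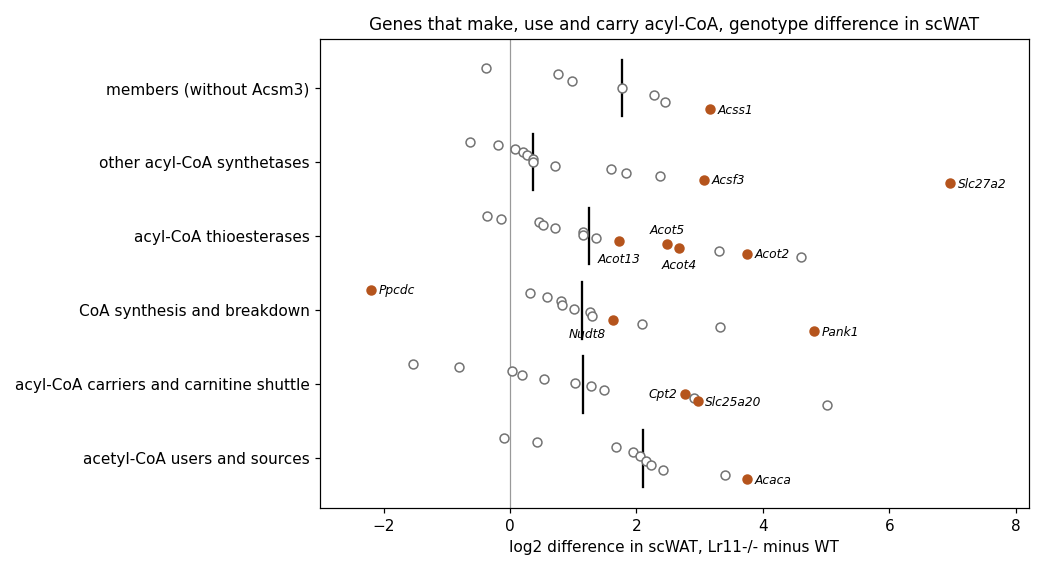
Log2 difference between Lr11-/- and WT scWAT for each tested gene of the 7 members other than Acsm3 and of the 5 pathway lists. Filled circles passed the test in limma, open circles did not, and the vertical bar is the median of the list; 12 of the 13 genes that passed lie above 0 and Ppcdc lies below it.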

How the data were processed

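Transcript levels were read from Agilent arrays with a single dye. The deposited intensity values were made by the authors with Agilent Feature Extraction 10.10, which subtracts background and removes spatial trends within each array, and were not normalized between arrays. The deposited table of the whole series held the same intensity values as the scanner files (largest difference 0). Control spots and outlier spots (128 to 181 on an array) were dropped, and repeated spots of a probe averaged. Of the 62976 features on each array, 59305 spots for 55681 probes remained, and 32377 to 37002 spots were well above background and 0 saturated.

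Each intensity was expressed on the log2 scale relative to the 75th percentile of its array (374 to 632). The 32131 probes that at least 1 group showed well above background on all 3 of its arrays were tested with limma 3.58.1 under R 4.3.3, in 1 fit with 4 group means, with Benjamini-Hochberg adjustment over all of them and calls at an adjusted p under 0.05. Plots used Python 3.11.15 and matplotlib 3.10.9. The steps were tested on simulated data in which each probe had the same spread in all 4 groups. That test does not cover groups of unequal spread, as these data have.

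RefSeq accessions on the array were named through the GRCm38.p6 gene table, which gave a symbol to 27235 of 28685 probes with an accession. Probe coordinates are not given, since the array's design refers to a different assembly. All 9 members had a promoter entry, 12 in all. A gene was read from the probe with the highest mean among those tested. Named outside the members were up to 5 genes of each pathway list with the largest called difference, the 10 genes most correlated with Acsm3 (1 of them is not reported here), and 4 neighbours on each side. The members, lists and motifs were chosen with earlier results of these data known.

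For a bound on a fold change, a dim array was lifted to the faintest signal that counted as well above its background, which allows for dim signal only. The alternatives were 3 other scalings, normexp background with an offset of 50, other filters, array series or slide as a block, other samples in the fit, array weights, trended robust variance, the mean of all probes of a gene, and each array left out. For the depot differences slide was a random block. Normexp was run on the median spot signal. Leaving out both muscle-rich scWAT arrays was chosen after seeing the data.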

Additional observations from a re-analysis of the deposited data

How the results depend on the processing

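The number of members other than Acsm3 that passed in scWAT, 1 as reported, was 0 with no filter on dim probes and when only scWAT arrays were fitted, where 0.271% and 0% of all probes passed, 3 in the second array series alone and with array weights (22.6% and 10.5%), and 4 without both muscle-rich scWAT arrays (26.2%). With each array left out in turn it was 0 to 3, with 3 when replicate 1 of either genotype's scWAT was omitted (13.7% of all probes for WT and 19.8% for Lr11-/-), 2 without WT scWAT replicate 3 (14.4%), and 0 without any other array (0.00934% to 0.691%). For the difference between the tissues in genotype effect the count was 0, where 0% of all probes passed. It became 1 in the second array series alone (Acss2, adjusted p = 0.0426 in limma, 2.77% of all probes) and with array weights (3.37%). It was 2 without both muscle-rich arrays (9.43%) and 0 to 0 with single arrays left out (0% to 3.72%). Between the WT depots the count was 2, where 24.8% of all probes passed. It became 5 in the second array series alone (25.3%), 1 in a fit to the arrays compared (12.2%) and 4 without both muscle-rich arrays (35.3%). With single arrays left out it was 2 to 4 (10.2% to 31.9%). It was 4 when replicate 1 of either genotype's scWAT was omitted (31.9% for WT and 29.6% for Lr11-/-). Between the Lr11-/- depots the count was 0, where 0.0405% of all probes passed. It became 1 with array weights (Acsl4, adjusted p = 0.0183 in limma, 6.29% of all probes). With single arrays left out it stayed at 0 to 0 (0.0156% to 0.165%). In BAT between genotypes the count was 0 in every setting run (0% to 0.224% of all probes). The cause of these changes was not tested.

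Signs turned for differences that were not called. In BAT between genotypes, Acss2 became -2e-04 with quantile normalization and -0.069 with array weights, Acsl4 0.013 with median scaling, and Acsl1 -0.10 in the second array series alone. Between the Lr11-/- depots, Acss2 became -0.018 with quantile normalization, -0.11 with no scaling, -0.032 with normexp background, -1.23 in the second array series alone, -1.09 with array weights and -1.16 without both muscle-rich arrays. Acsl1 became -0.16, -0.032 and -0.12 and Acsl5 -0.61, -0.40 and -0.29 in the last 3 of these settings in turn. Acsm5 became 0.018 in the second array series alone and 0.0093 with array weights, and Acsm3 -0.0068 without both muscle-rich arrays. For the difference between the tissues, Acsm5 became -0.04 in the second array series alone, -0.61 with array weights and -0.10 without both muscle-rich arrays, and in scWAT it became -0.088 with array weights. With single arrays left out, the BAT difference between genotypes ran from -0.090 to 0.033 for Acsl4, -0.056 to 0.19 for Acsl1, -0.22 to 0.32 for Acss2 and -0.24 to 0.054 for Acsl3, and the difference between the tissues for Acsm5 from -0.43 to 1.1. Between the Lr11-/- depots it ran from -0.12 to 0.56 for Acsl1, -0.29 to 1.24 for Acsl5, -1.16 to 0.64 for Acss2 and -0.0068 to 0.70 for Acsm3. No paired analysis was possible because the labels carry no replicate numbers, and those used here follow the order of deposit. Blocking on series or on slide kept Acss1 past the threshold in scWAT (adjusted p of 0.04 and 0.0438 in limma). With either block, 0 of the 6 tested neighbours of Acsm3 passed.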
